A study of Caenorhabditis elegans with 2 samples.

Results

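The genes described here are the nuclear genes of the mitochondrial respiratory chain and ATP synthase in Caenorhabditis elegans, as far as their names show it. They were taken from the WBcel235 annotation as the protein-coding genes named nuo-, nduf-, sdha-, sdhb-, sdhc-, sdhd-, ucr-, cox- or atp-, together with isp-1 and cyc-1. This rule gave 43 of 19973 nuclear protein-coding genes, with 12 in complex I, 4 in complex II, 7 in complex III, 15 in complex IV and 5 in complex V. The gene set was proposed with earlier results of the same peak lists in view, so its peak counts are a description and carry no test.

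The study mapped LIN-13 on chromatin by ChIP-seq in whole mixed-stage embryos, pooled male and female, with 2 biological replicates in 1 group. The strain was OP51, which carries the unc-119(ed3) mutation on chromosome III and wgIs51, an inserted transgene for lin-13 that the labels describe as eGFP-tagged. The antibody field of the labels names lin-13 itself, so whether the tag or the protein was precipitated is not settled by them. Whether the peaks come from the transgene product alone or also from endogenous LIN-13 is therefore unknown. Both replicates come from the same strain, and a whole embryo mixes all its cell types, so no cell type can be assigned to any peak.

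LIN-13 belongs to the synMuv B proteins, carries zinc fingers and acts with the worm retinoblastoma protein and heterochromatin proteins to repress genes. The respiratory chain passes electrons from NADH through complex I, or from succinate through complex II, to ubiquinone, then through complex III and cytochrome c to complex IV, where oxygen is reduced. The proton gradient built on the way drives complex V, the ATP synthase. Most subunits are encoded in the nucleus and imported, and a small core is encoded in mitochondrial DNA, which was outside the gene set.

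A gene was counted as carrying a peak when a summit of the authors' reproducible list lay within 1000 bp upstream to 200 bp downstream of any of its transcription start sites (TSS). That list holds 1534 peaks, selected by IDR, a procedure built on how reproducibly replicates rank regions. These are ranks 1 to 1534 of the pooled list, which has 30000 regions. An IDR peak need not rank high in both replicates. Within the first 1534 regions of both were 790 of the 1534 peaks. Peak strength is given as the signal value of the deposited lists, whose scale differs between lists, and as the rank by that value within a list, where 1 is the strongest. The lists hold no read counts, so sequencing depth per replicate is unknown and no signal value has an error of its own.

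The sequences under 5 peaks are shown first, 1 for each of complexes I to V, so that a strong peak of each can be read beside its values. They are the highest peak of each complex outside 1 chromosome, whose sequences are not shown, so the higher peaks of cyc-1 and atp-1 are described by their values alone. Each is the 201 bases centred on the summit, from RefSeq WBcel235, on the strand of the gene, 5′ to 3′, with the summit at base 101. The window of nuo-1 is chrII:11097451-11097651, plus strand. That of sdha-1 is chrX:8546127-8546327, minus strand. The window of ucr-2.2 is chrX:15173577-15173777, plus strand, that of cox-5A is chrIII:12905102-12905302, plus strand, and that of atp-2 is chrIII:5228076-5228276, plus strand. Capitals mark runs of at least 12 bases that a pair of these windows share and, in sdha-1 at base 91, also an E2F-like motif.
nuo-1: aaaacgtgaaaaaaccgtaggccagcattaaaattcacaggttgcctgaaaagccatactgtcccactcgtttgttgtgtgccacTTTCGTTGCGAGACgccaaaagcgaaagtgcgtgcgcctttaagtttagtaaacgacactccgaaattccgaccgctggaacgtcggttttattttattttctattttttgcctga
sdha-1: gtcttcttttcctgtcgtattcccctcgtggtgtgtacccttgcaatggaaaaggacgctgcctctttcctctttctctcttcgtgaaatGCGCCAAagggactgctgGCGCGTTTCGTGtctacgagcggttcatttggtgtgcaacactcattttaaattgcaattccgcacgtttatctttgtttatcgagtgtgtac
ucr-2.2: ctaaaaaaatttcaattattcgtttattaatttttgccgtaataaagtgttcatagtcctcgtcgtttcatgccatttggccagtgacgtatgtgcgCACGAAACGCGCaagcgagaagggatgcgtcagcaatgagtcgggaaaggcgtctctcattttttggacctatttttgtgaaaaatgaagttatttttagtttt
cox-5A: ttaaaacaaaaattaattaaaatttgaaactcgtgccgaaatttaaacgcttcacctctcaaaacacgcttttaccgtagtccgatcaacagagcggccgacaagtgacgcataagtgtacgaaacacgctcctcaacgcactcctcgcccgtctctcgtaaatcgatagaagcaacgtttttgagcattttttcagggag
atp-2: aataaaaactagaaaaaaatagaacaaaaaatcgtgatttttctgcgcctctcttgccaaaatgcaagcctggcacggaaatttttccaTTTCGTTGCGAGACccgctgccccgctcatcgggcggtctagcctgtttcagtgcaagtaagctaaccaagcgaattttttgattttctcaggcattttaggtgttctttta

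Runs of at least 12 bases were found in 2 of the 10 pairs of windows, a search added after the windows had been read. The windows of nuo-1 and atp-2 share TTTCGTTGCGAGAC, 14 bases on the same strand, starting at base 86 and base 90. Among the other 1510 IDR peaks, 2 windows hold this run (0.132%), as do 7 of 27480 lower-ranked regions of the pooled list (0.0255%), which are those over 1000 bp from every IDR summit. The windows of sdha-1 and ucr-2.2 share GCGCGTTTCGTG, 12 bases read on opposite strands. That run is in 5 of the other 1510 IDR windows (0.331%) and in 1 of the 27480 lower-ranked ones (0.00364%). These matches are a description of letters and not of binding sites.

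An IDR summit lay in the promoter window of 23 of the 43 genes (53.5%, exact 95% binomial interval 37.7% to 68.8%). Over all nuclear protein-coding genes the same window held a summit for 1628 of 19973 genes (8.15%). The intervals treat genes as independent and cover counting error over genes only. The share was 5 of 12 in complex I, 1 of 4 in complex II, 5 of 7 in complex III, 9 of 15 in complex IV and 3 of 5 in complex V. Differences between the complexes were not tested, and each complex has 15 genes or fewer.

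**Figure D1:**
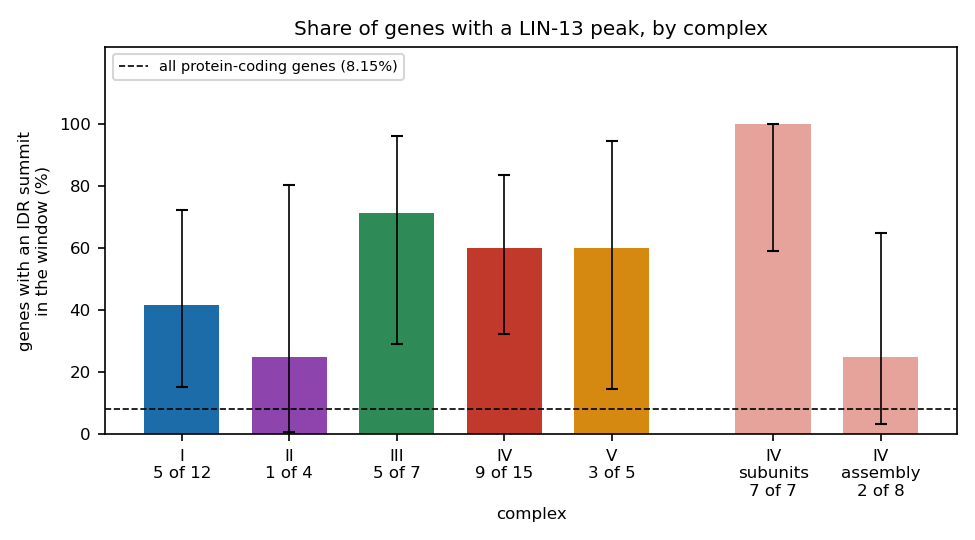
Bars give the percentage of genes with an IDR summit in the promoter window for complexes I to V and, at the right, for the subunits and assembly factors of complex IV apart. Whiskers are exact 95% binomial intervals over genes, and the dashed line is the 8.15% of all protein-coding genes. The bars run from 25.0% for complex II and the assembly factors to 100% for the complex IV subunits, and the whiskers are wide because each group holds few genes.

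Complex I oxidises NADH, and 5 of its 12 named genes carried a peak (41.7%, interval 15.2% to 72.3%). The highest was at nuo-1, which encodes the flavoprotein that receives electrons from NADH. Its peak (chrII:11097409-11097692) had a pooled signal of 70.5 at rank 362, with rank 1031 in replicate 1 and rank 255 in replicate 2. The summit lies 286 bp upstream of nuo-1 and 347 bp upstream of rpl-36.A, a ribosomal protein gene on the other strand, inside an exon of the noncoding RNA C09H10.11.

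The peak of nduf-9, an accessory subunit of the alpha subcomplex, lies 263 bp upstream of its gene (chrIII:3248696-3248979) in intergenic sequence. It had a signal of 58.4 at rank 539, with rank 823 in replicate 1 and rank 580 in replicate 2. The peak of nduf-11, an accessory membrane subunit, lies 184 bp upstream (chrII:11345662-11345945) and had a signal of 56.7 at rank 581. Replicate 2 placed it at rank 444 and replicate 1 at rank 1541, just beyond the first 1534. For nuo-2, an iron-sulfur protein subunit by its annotation, the signal was 49.8 at rank 753, with ranks 954 and 1041 in replicates 1 and 2. Its summit is 149 bp upstream of the gene and falls in the 3′ UTR of T10E9.14, the gene before it on the same strand.

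The peak of nduf-6, annotated as an iron-sulfur protein subunit, was the weakest of complex I, at 34.3 and rank 1436. Replicate 2 ranked it 709, and replicate 1 had no summit within 100 bp of it. That summit lies between nduf-6, at 262 bp, and nars-1, a gene on the opposite strand. The other 7 complex I genes had no IDR summit. Of these nduf-2.2, a copy of the core subunit gene gas-1, came closest, with a pooled signal of 25.4 at rank 2257, rank 3223 in replicate 1 and rank 5113 in replicate 2. The next 5 had pooled ranks of 9061 for nuo-5, 10673 for nduf-7, 12115 for nuo-3, 14610 for nuo-6 and 22656 for nduf-5, and nuo-4 had no region in any list.

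Complex II, succinate dehydrogenase, joins the tricarboxylic acid cycle to the chain, and 1 of its 4 named genes carried a peak (25.0%, interval 0.631% to 80.6%). It was at sdha-1, the flavoprotein subunit that oxidises succinate (chrX:8546085-8546368), with a signal of 65.0 at rank 435. The ranks were 372 in replicate 1 and 689 in replicate 2. The summit is 206 bp upstream of sdha-1, in an exon of the noncoding RNA D2021.5 and 23 bp from the start of the snoRNA D2021.6. Its paralog sdha-2, annotated with the same product, had no region in its window in any of the 4 lists.

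The membrane anchor gene sdhd-1 missed the IDR set with a pooled signal of 25.8 at rank 2197. Replicate 2 alone ranked it 891, inside its first 1534, and replicate 1 ranked it 1964. The iron-sulfur subunit gene sdhb-1 was far lower, with pooled rank 7982, rank 6006 in replicate 1 and no region in replicate 2. Another anchor gene, mev-1, lies outside the name rule and is given with the other pathway genes.

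Complex III moves electrons from ubiquinol to cytochrome c, and 5 of its 7 named genes carried a peak (71.4%, interval 29.0% to 96.3%). The highest was at cyc-1, cytochrome c1, whose haem hands electrons to cytochrome c (chromosome I, 8024582 to 8024865). Its signal was 86.8 at rank 231, with ranks 233 and 335 in replicates 1 and 2, in intergenic sequence 302 bp upstream of the gene. Both replicates placed it in nearly the same part of their lists.

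The core proteins of complex III form a large matrix-facing base. For ucr-1, core protein 1, the peak (chrIII:5591826-5592109) had a signal of 52.3 at rank 683 and lies 167 bp upstream, with the start of ddx-15 250 bp away on the other strand. Replicate 1 ranked it 330 and replicate 2 ranked it 2022. The 3 genes of the ucr-2 family differed among themselves. The peak of ucr-2.2 (chrX:15173535-15173818) had a signal of 61.1 at rank 496, and that of ucr-2.1 (chrX:12018006-12018289) had 50.4 at rank 735. Replicates 1 and 2 ranked ucr-2.2 at 144 and 1413, and ucr-2.1 at 704 and 975. The summit of ucr-2.1 is 281 bp upstream of that gene but 105 bp from nmat-1, which starts on the opposite strand. The best region of ucr-2.3 was at pooled rank 29503, near the end of the list, with none in replicate 2.

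The Rieske iron-sulfur protein gene isp-1 carried a weaker peak (chrIV:8136205-8136488), with a signal of 37.0 at rank 1260. Replicate 1 ranked it 588 and replicate 2 ranked it 3530, with replicate 2 beyond its first 1534. The summit is 292 bp upstream of isp-1 and 42 bp from the start of islo-1 on the other strand, so the nearest coding TSS was not that of isp-1. The small subunit gene ucr-11 had no IDR summit, and its best pooled rank was 18338.

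Complex IV, cytochrome c oxidase, held the strongest peaks of the gene set. The 15 named genes are 7 subunit genes and 8 numbered cox-10 and higher, which are assembly factors by their namesakes in yeast and human. All 7 subunit genes carried an IDR peak (interval 59.0% to 100%), against 2 of the 8 assembly factor genes (25.0%, interval 3.19% to 65.1%). This division of the cox- genes was made with their peak calls already known and carries no test. For cox-11, cox-15, cox-17, cox-18 and cox-19, all without a peak, the nearest upstream coding gene is on the same strand, within 500 bp. None of the 7 subunit genes has that position, which is described further below. Role and position overlap in these genes and were not tested apart. Giving each summit to the nearest coding TSS alone left 4 of the 7 subunit genes. Of 5 more complex IV subunit genes that RefSeq products show outside the name rule, F36A2.7 and F29B9.11 carried a peak and B0035.18, F22B5.4 and Y111B2A.2 did not, which makes 9 of 12 over both. Assembly factor genes outside the name rule were not listed or counted in the same way. The complex IV copper chaperone gene sco-1, given with the other pathway genes below, carried a peak with a signal of 103 at rank 138.

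The strongest peak of all 43 genes was at cox-5A, a matrix-side subunit (chrIII:12905113-12905272), with a signal of 205 at rank 15. Replicate 1 ranked it 28 with a signal of 66.0, and replicate 2 ranked it 12 with a signal of 135. The summit lies in intergenic sequence 289 bp upstream of cox-5A and in the window of no other protein-coding gene. The window printed above shows none of the motifs searched.

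The zinc-binding subunit gene cox-5B had a signal of 186 at rank 22 (chromosome I, 9788644 to 9788811), with its summit 3 bp upstream of the TSS. Replicate 1 ranked it 8 and replicate 2 ranked it 43, and it too lies in no other coding window. The peak of cox-6B, a subunit on the intermembrane side, had a signal of 165 at rank 25 (chrIII:2785968-2786125). The replicates ranked that peak 51 and 28. These 3 peaks are within the first 25 ranks of the list, and no further peak of the 43 genes is within the first 100.

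The cox-6B summit is shared with other genes. It lies 148 bp upstream of the nearest cox-6B start, in an intron of a longer cox-6B transcript, but 106 bp from the start of Y71H2AM.20 on the other strand and 798 bp from nduc-2, a complex I subunit gene. A further IDR peak (chrIII:2698797-2699080) lies 724 bp upstream of the distant first start of cox-6B, and also in the window of slc-30A9. It had a signal of 35.5 at rank 1352, with rank 6766 in replicate 1 and rank 960 in replicate 2. The 23 genes with a peak therefore carry 24 distinct peaks.

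The remaining subunit genes had peaks in the middle and lower part of the list. At cox-4, a subunit that spans the inner membrane, the signal was 60.3 at rank 507, with ranks 722 and 516 in the replicates, 459 bp upstream and within an intron of a pseudogene. The signals were 59.1 for cox-6C at rank 524, 54.8 for cox-6A at rank 619 and 33.1 for cox-7C at rank 1513. The replicates ranked cox-6C at 376 and 1179, and cox-6A at 901 and 746. The cox-6A summit is the farthest of all from its gene, at 783 bp, and is 43 bp from an annotated snRNA. At cox-6C and cox-7C another coding gene starts closer, grld-1 at 363 bp and F26E4.4 at 126 bp, and the cox-7C peak had rank 1953 in replicate 1 and no counterpart within 100 bp in replicate 2.

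Of the assembly factor genes, cox-14 had a signal of 57.2 at rank 566, with ranks 1232 and 396 in replicates 1 and 2. Its summit is 160 bp upstream of cox-14 and 136 bp from the start of rde-4, an RNA interference gene on the other strand. The other was cox-10, the farnesyltransferase that makes haem for the enzyme, with a signal of 48.6 at rank 793. Replicate 2 ranked that peak 518 and replicate 1 ranked it 3922, and its summit is also in the window of Y38E10A.33 on the other strand. The best pooled ranks of the remaining 6 were 2364 for cox-16, 5928 for cox-11, 11033 for cox-18, 20820 for cox-17 and 27884 for cox-15, and cox-19 had no region in any list.

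Complex V makes ATP in its F1 head, and 3 of its 5 named genes carried a peak (60.0%, interval 14.7% to 94.7%). The alpha subunit gene atp-1 had a signal of 96.9 at rank 166 (chromosome I, 12652222 to 12652331), with ranks 85 and 268 in the replicates. Its summit is 3 bp downstream of the TSS, in the 5′ UTR, and is the only one of the 23 that is not upstream. The atp-1 summit is also in the window of mcrs-1, on the other strand. The beta subunit gene atp-2, which carries the catalytic sites, had a signal of 54.6 at rank 624 (chrIII:5228034-5228317), with ranks 865 and 683. That summit is 241 bp upstream of atp-2 and also in the windows of C34E10.10 and C34E10.12.

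At atp-3, whose product joins the head to the stalk, the signal was 49.7 at rank 759, with ranks 1162 and 1028 in the replicates and the summit 34 bp upstream. That summit is also in the window of F27C1.2, on the other strand. The stalk genes atp-4 and atp-5 missed the IDR set. For atp-5 the pooled signal was 31.6 at rank 1623, with rank 1715 in replicate 2 but 14964 in replicate 1. For atp-4 it was 24.8 at rank 2341.

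**Figure D2:**
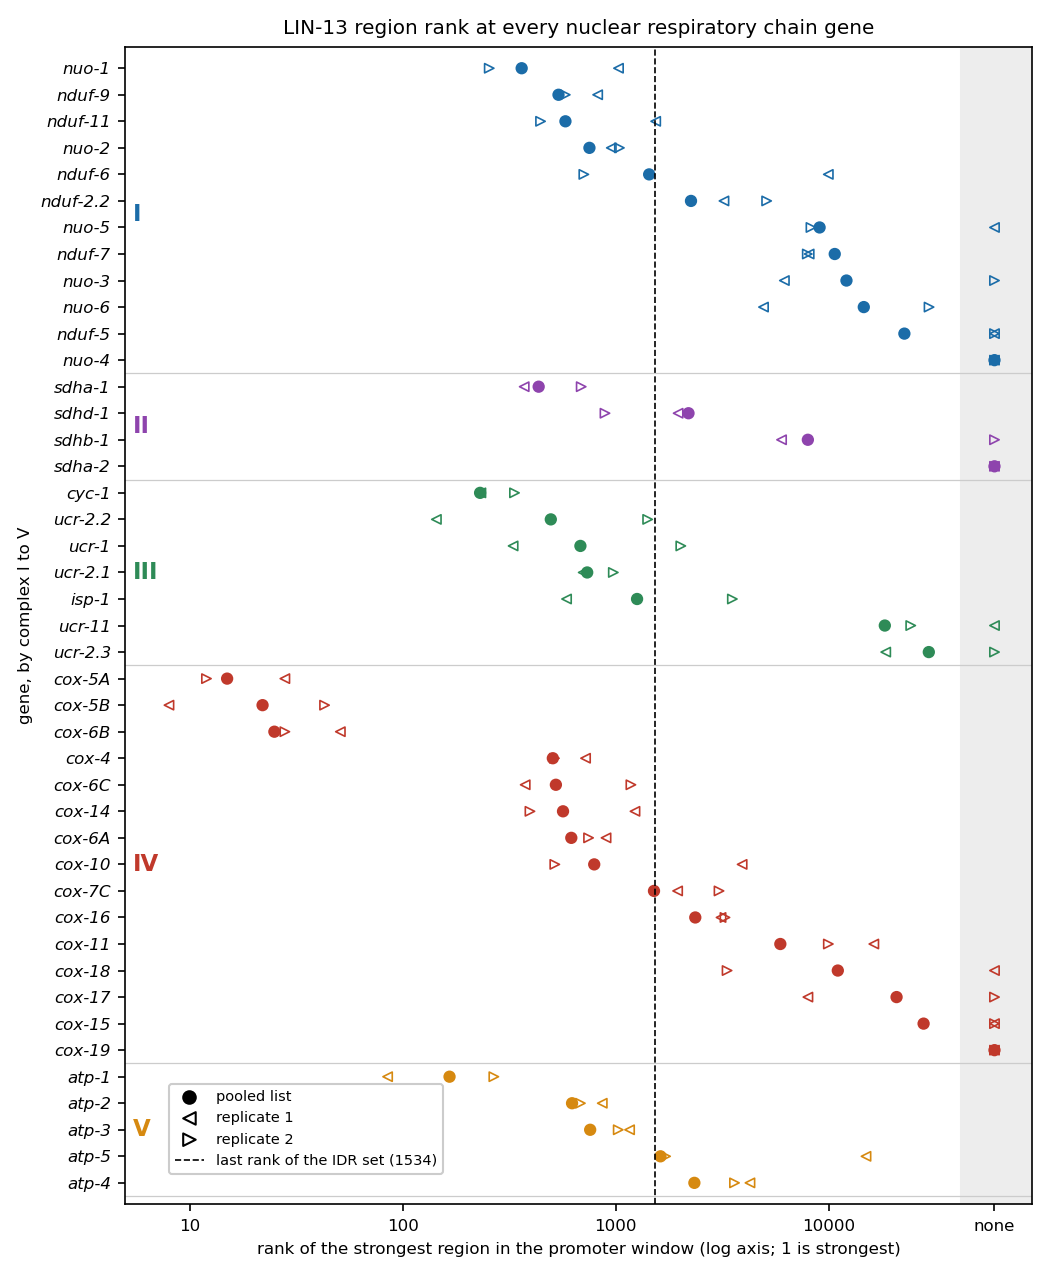
Each row is 1 of the 43 genes, grouped by complex, and the horizontal log axis is the rank of the strongest region in its promoter window. Filled circles are the pooled list, left triangles replicate 1 and right triangles replicate 2, the dashed line is rank 1534, and symbols in the grey column mark a list with no region. The reader should see cox-5A, cox-5B and cox-6B far to the left of all others, and nuo-4, sdha-2 and cox-19 with no region in any list.

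The threshold falls between cox-7C and atp-5, which had nearly equal signals of 33.1 and 31.6. The lowest signal of the IDR set was 32.8. Just inside it were cox-7C at rank 1513 and nduf-6 at rank 1436, and just outside was atp-5 at rank 1623. Further out were sdhd-1 with 25.8 at rank 2197 and nduf-2.2 with 25.4 at rank 2257. So were atp-4 with 24.8 at rank 2341 and cox-16 with 24.7 at rank 2364. Of the 20 genes without an IDR peak, 5 had a pooled rank up to 2500, 12 had one over 5000 and 3 had no region. A region in both replicate lists was present at 8 of those 20. Over all coding genes, 42.8% had a region in replicate 1 and 40.7% in replicate 2. The share with a region in both lists was not computed, so the 8 genes are a count only.

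Taken deeper into the pooled list, the count of genes rose, stayed level from 2500 to 5000 regions and then rose again. Within the first 100 regions 3 of the 43 genes had a summit (6.98%), against 0.721% of all coding genes. Within the first 1000 it was 20 genes (46.5% against 5.68%), and within the first 2500 it was 28 (65.1% against 11.4%). From there to rank 5000 no gene was added, while the share of all coding genes went to 16.2%. Within the first 10000 it was 31 genes (72.1% against 22.8%), and within the first 20000 it was 36 (83.7% against 32.7%). In the whole pooled list of 30000 regions 40 of the 43 genes had a region (93.0%), but so did 41.3% of all coding genes. The replicate lists of the same length reached 35 genes in replicate 1 (42.8% of all coding genes) and 34 genes in replicate 2 (40.7% of all coding genes).

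**Figure D3:**
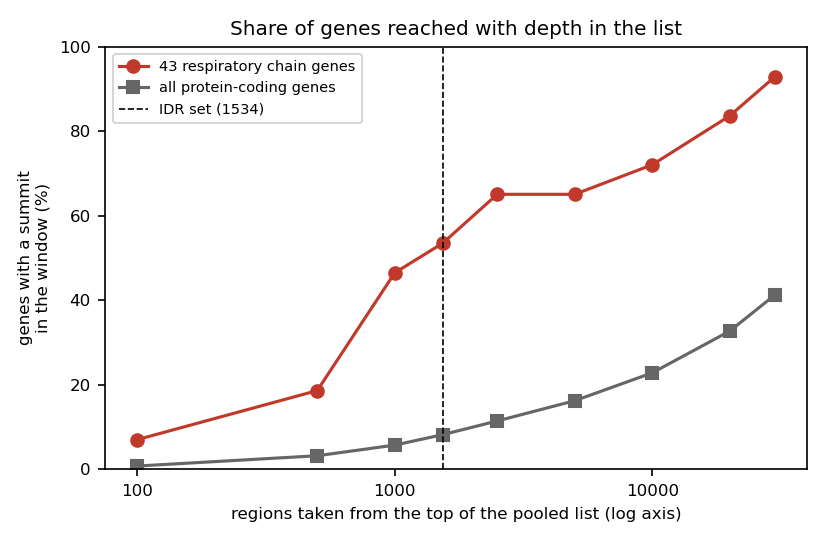
The horizontal log axis is the number of regions taken from the top of the pooled list, and the vertical axis the percentage of genes with a summit in the promoter window. Circles are the 43 respiratory chain genes and squares all protein-coding genes, with the IDR set dashed. The circles rise from 6.98% to 65.1% by 2500 regions, stay level to 5000 and reach 93.0% at the end.

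The summits lay close to the genes and mostly upstream. Of the 23 genes, 22 had the summit upstream of the nearest own TSS, and the median distance was 241 bp. The annotation places 13 of these summits in intergenic sequence and 6 in exons of noncoding RNAs. A further 2 are in introns, 1 in a 5′ UTR and 1 in a 3′ UTR. Side, own-TSS distance and location were not computed for other genes, so these values describe the 23 genes only. For the 24 peaks, the closest start of any coding gene was a median 176 bp away. For the 1130 other IDR peaks at coding promoters it was 186 bp.

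Many of these promoters are shared with a neighbour. At 13 of the 23 genes the summit was also in the window of another protein-coding gene, and each of those neighbours included a gene on the opposite strand. The gene named here had the nearest coding TSS at 17 of the 23. Over peaks, 14 of 24 (58.3%) were in the windows of at least 2 coding genes, against 465 of the 1130 other IDR peaks at coding promoters (41.2%). A peak in the windows of several genes had more chances to be picked through a gene of the set, which by itself raises the first share. For such a shared summit the lists do not tell which gene it belongs to.

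**Figure D4:**
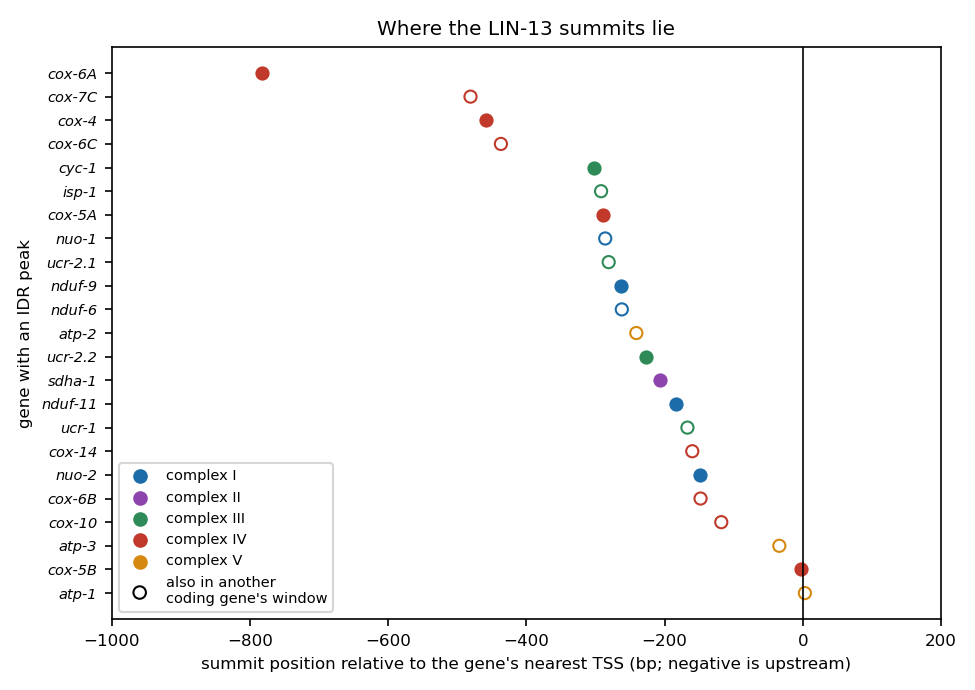
Each row is 1 of the 23 genes with an IDR peak, and the horizontal axis is the position of the summit relative to the nearest TSS of the gene in bp, with upstream negative. Colours are complexes I to V, and open circles mark the 13 summits that are also in the window of another protein-coding gene. The summit of atp-1 alone is to the right of 0, and that of cox-6A lies farthest upstream, at 783 bp.

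Worm genes are often arranged in operons, where downstream genes are transcribed from the promoter of the first gene. Operons are not annotated in the sources used here, so genes whose nearest upstream coding gene on the same strand ends within 500 bp were taken as a stand-in. Of 15 respiratory chain genes in such a position, 5 carried an IDR peak (33.3%), against 18 of the other 28 (64.3%). Over the genome the corresponding shares were 5.38% of 3609 genes in that position and 8.76% of 16364 other genes.

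The 10 genes in that position without a peak were then followed to the first gene of their same-strand cluster, a lookup added after their calls were known. For 6 of the 10 that first gene carried an IDR peak, while over the genome this held for 615 of the 3415 genes in that position without a peak. For the 5 genes in that position with a peak of their own it was 0, against 27.8% of 194 such genes. Over both kinds the count was 6 of 15, against 18.5% of 3609 coding genes. The nuo-4 cluster begins with syf-2, a splicing factor gene, whose peak ranked 55. The cox-11 cluster begins with lin-54, a DNA-binding subunit gene of the DREAM complex, whose peak ranked 54. The others were ucr-11 behind dad-1 at rank 131, cox-18 behind Y55F3AR.2 at rank 145, cox-15 behind the proteasome gene rpn-9 at rank 478, and nuo-5 behind Y45G12B.2 at rank 794. The first genes before sdha-2, cox-17, cox-19 and atp-4 had no IDR peak. The gap to the gene before was 96 to 119 bp for 9 of the 10 genes, and a gap up to 120 bp, a bound set after seeing them, occurred at 1 of the 5 genes with a peak, nuo-2. How common such gaps are among all coding genes in that position was not computed, so these are counts only.

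The replicates ranked the same peaks differently. Of the 24 peaks, 23 had a summit within 100 bp in replicate 1 and 23 in replicate 2. The median ratio between the replicates' ranks was 2.72 over the 22 peaks found in both, against 2.34 over 1043 other peaks at coding promoters. The rank was better in replicate 1 for 10 of the 22 peaks and in replicate 2 for 12. Among the first 1534 regions of both replicates were 17 of the 24 peaks (70.8%), against 56.3% of the other IDR peaks at coding promoters.

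**Figure D5:**
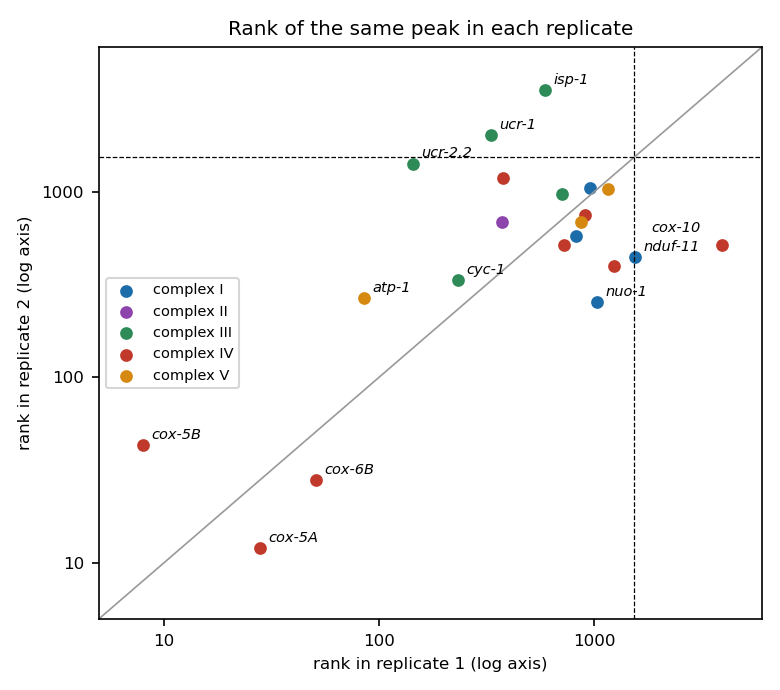
Each point is the IDR peak of 1 gene that has a summit within 100 bp in both replicate lists, with its rank in replicate 1 on the horizontal and in replicate 2 on the vertical log axis. Colours are complexes I to V, the diagonal is equal rank and dashed lines are rank 1534. The points of cox-5A, cox-5B and cox-6B lie in the lower left corner, while isp-1 and ucr-1 are beyond the line in replicate 2 and cox-10 and nduf-11 in replicate 1.

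With the first 1534 regions of replicate 2 alone, 21 of the 43 genes had a summit, against 7.27% of all coding genes. With those of replicate 1 alone it was 19, against 7.94%. Complex III had 3 genes from replicate 2 alone and 5 from replicate 1 alone, while complex I had 5 and 3, and complex II had 2 and 1. The summit of sdhd-1 was gained in replicate 2. The 790 IDR peaks within the first 1534 regions of both replicates left 17 genes (4.83% of all coding genes), and the IDR peaks on the stronger side of the median left 19 (4.58%).

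Narrowing the window to 500 bp upstream lost cox-6A and left 22 genes, against 6.72% of all coding genes. Giving each summit to the gene of the nearest coding TSS alone, at any distance and without the window, left 17, against 7.25%. The genes lost by that assignment were isp-1, ucr-2.1, cox-14, cox-6B, cox-6C and cox-7C, so complex III fell from 5 to 3 genes and complex IV from 9 to 5. Across the main definition and these 6 alternatives 12 genes always had a summit: nduf-9, nuo-1, nuo-2, sdha-1, cyc-1, ucr-2.2, cox-4, cox-5A, cox-5B, atp-1, atp-2 and atp-3. In none of the 7 did 19 genes have one.

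The 24 peaks were also set beside other regions by rank and sequence. Their median rank was 574, against 712 for the 1130 other IDR peaks at coding promoters, and their median GC content in the 201 bases was 40.3% against 42.8%. The median GC content was 44.8% for all other IDR peaks and 40.3% for lower-ranked regions. Motifs were searched on both strands of the same 201 bases. The E2F-like set (TTCCCGC or TTGGCGC or TTCGCGC or TTGCCGC) matched 3 of 24 peaks (12.5%), those of nduf-11, nuo-2 and sdha-1. The same set matched 22.4% of the 1130 other IDR peaks at coding promoters, 20.5% of all other IDR peaks and 10.8% of lower-ranked regions.

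The repeat GAGAGAGA matched none of the 24, against 6.11%, 8.81% and 3.01% of the same sets in that order. The motif CTGCGTCTC matched 1 peak, that of ucr-1 (4.17%), against 10.8%, 12.2% and 3.18%. For CCACCC it was 0, against 6.46%, 7.95% and 5.74%. With 24 peaks, a share of a few percent corresponds to 1 or 2 peaks, and the absence of these letters says nothing about any factor.

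By chromosome, peaks were found at 8 of 14 genes on chromosome I, where 12.1% of all coding genes had one, and at 3 of 6 on chromosome II (7.94%). On chromosome III it was 7 of 11 (12.5% of all coding genes), on chromosome IV 2 of 5 (7.35%) and on chromosome V 0 of 4 (4.57%). On chromosome X all 3 genes, sdha-1, ucr-2.1 and ucr-2.2, carried one, a row singled out after it was seen. Among all coding genes of chromosome X, 206 of 2731 had a summit (7.54%). With 3 to 14 genes on a chromosome these counts show no difference between chromosomes by themselves. The 4 genes of chromosome V all had lower-ranked regions in the pooled list.

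The name rule misses further genes of the same pathways, which were examined as separate lists. Their shares stand beside the 8.15% of all protein-coding genes. A hand-picked list of 21 other respiratory chain and ATP synthase genes also held assembly genes and the ADP/ATP carrier genes ant-1.1 to ant-1.4. Of these 21 genes, 8 carried an IDR peak (38.1%). The highest were sco-1, a copper chaperone gene of complex IV, with a signal of 103 at rank 138, ant-1.1, an ADP/ATP carrier gene, with 99.6 at rank 153, and asb-2, an ATP synthase subunit gene, with 97.6 at rank 165. The complex II anchor gene mev-1 had a signal of 61.1 at rank 495, and gas-1 had 33.8 at rank 1473, inside the set that its copy nduf-2.2 missed.

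Complex I genes named ndua-, ndub-, nduc-, ndus- or nduv- were listed after the first counts, and 7 of 19 carried a peak (36.8%). The highest was nduc-2, whose peak is the one shared with cox-6B, followed by ndua-8 with a signal of 130 at rank 64 and nduv-3 with 79.5 at rank 281. The ndua-8 summit is also in the windows of rbc-2 and Y54F10AM.15, and the nduv-3 summit in that of mdf-2. The share among the 12 complex I genes above was 41.7%.

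Genes with a number-style name that RefSeq annotates as subunits were added at the same time, and 8 of 27 entries carried a peak (29.6%). The name R05D3.6 stands for more than 1 of these entries, none with a peak. The highest were F36A2.7, annotated as cytochrome c oxidase subunit 4, with 139 at rank 48, Y82E9BR.3, annotated as ATP synthase c subunit, with 115 at rank 105, and T27E9.2, annotated as cytochrome b-c1 complex subunit 6, with 99.6 at rank 153. The T27E9.2 peak is the one named above for ant-1.1. Next was F29B9.11, annotated as a subunit VIIc polypeptide, with 69.2 at rank 377. Among the 14 tricarboxylic acid cycle genes 7 carried a peak (50.0%). The highest were idhb-1 with 82.2 at rank 253, idhg-1 with 62.9 at rank 463 and idha-1 with 56.6 at rank 584, which all encode subunits of the NAD-dependent isocitrate dehydrogenase. Of 8 ubiquinone synthesis genes 1 carried a peak (12.5%), coq-3, with a signal of 35.6 at rank 1345, and that share is near the genome-wide 8.15%.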

How the data were processed

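LIN-13 ChIP-seq of 2 biological replicates in 1 group was deposited as region lists in narrowPeak format. Per the file headers, regions were called per replicate and on the pooled replicates, against a control, and the final list came from these by IDR. The control experiment was not analysed here. Which aligner, peak caller and IDR threshold the authors used is not given in the sources used here. Column 7 of the deposited lists, the signal, is the authors' own value per region, and it served to rank the regions of 1 list and to describe peaks. The 4 ce11 lists were used, and the ce10 lists were not. Regions differed in width between lists (median 220 bp for replicate 1, 316 bp for replicate 2, 284 bp for IDR).

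TSS came from the Ensembl release 115 annotation of WBcel235, which is ce11, on the 6 nuclear chromosomes. All coordinates count from 1. A replicate region matched a peak when the summits were within 100 bp. Intervals are exact (Clopper-Pearson) at 95%. The window search was tested on simulated data. Sequences and products were read from RefSeq WBcel235. Full values are given for up to 4 genes per complex with the highest pooled signal, for the best-ranked genes without an IDR peak, for paralogs and for up to 3 genes of each other list. The members, lists and rules were chosen with earlier results of these data known, so no test was made. Python 3.11.15, numpy 2.4.6, pandas 2.3.3, scipy 1.17.1 and matplotlib 3.10.9 were used.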

Additional observations from a re-analysis of the deposited data

How the results depend on the processing

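The total of 23 genes stayed within 1.5 times under every alternative, between 17 and 22 (21 of 35 with structural subunits alone). Complex V kept 3 genes in all of them. With the nearest coding TSS alone, complex III had 3 genes and complex IV had 5. With IDR peaks in the top of both replicates, complex I had 3 genes and complex III had 3. Without 1 replicate, the counts were 3 to 5 for complex I, 1 to 2 for complex II and 3 to 5 for complex III. Complex I had 3 without replicate 2, complex II had 2 and complex III had 3 without replicate 1. The other counts by complex stayed within 1.5 times. No paired analysis was possible because there was 1 group and no test. Depth is unknown, the small numbers of genes leave wide intervals, and a summit between divergent genes cannot be assigned to either.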
